A study of Homo sapiens with 16 samples.

Results

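The genes described here are 10 transcripts that RAS/ERK signalling is known to switch on and whose products damp or carry forward that signalling: the MAP kinase phosphatases DUSP4, DUSP5 and DUSP6, the Sprouty genes SPRY1, SPRY2 and SPRY4, the Sprouty-related genes SPRED1 and SPRED2, and the ETS transcription factors ETV4 and ETV5. They were taken by symbol from the 27037 genes of the deposited tables, and all 10 were among the 15415 genes that passed the filter on low counts. The cells were SK-N-BE(2)C, an established human neuroblastoma line of the adrenergic type with amplified MYCN, which every group shares, and every group is this 1 line. Cultures received the vehicle DMSO, 10 µM retinoic acid (RA, a retinoid that promotes differentiation), 1 µM palbociclib (PB, an inhibitor of CDK4 and CDK6) or both drugs (PB+RA), with 4 biological replicates each, 16 samples in all. Treatment lasted several days according to the study's methods, so early and late responses are not separated. Values are given in CPM, the reads of a gene scaled to the same total of counted reads in each sample.

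In the RAS/ERK cascade, growth factor receptors load RAS with GTP, and RAS then activates RAF, MEK and ERK kinases in turn. Active ERK induces a set of genes that feed back on it: DUSP phosphatases remove the activating phosphates from MAP kinases, Sprouty proteins blunt signalling from receptors to RAS, and SPRED proteins bring neurofibromin, a RAS inactivator, to the membrane. ETV4 and ETV5, of the PEA3 group of ETS factors, are transcribed downstream of FGF and ERK signals. In neuroblastoma, changes in this pathway have been linked to relapse and to the response to retinoids. A messenger level is not a measure of ERK phosphorylation, which was not analysed here.

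Libraries held 19.5 to 31.6 M counts. Across all tested genes the median log2 fold change was between -0.04 and 0.04 in every comparison. All 8 adrenergic markers were detected in every group, with a summed level of 5081 to 5573 CPM in DMSO, 4940.25 to 5904 in RA, 7999.6 to 9235 in PB and 6431 to 8544 in PB+RA. Of 8 mesenchymal or fibroblast markers, 6 had values. Their sum was 662 to 775 CPM in DMSO, 766 to 963 in PB, 1102 to 1556 in RA and 1021 to 1382 in PB+RA, while TWIST2 was at 0 in every DMSO, RA and PB+RA sample. Among the 4 Schwann cell markers, whose sum stayed between 14.5 and 34.5 CPM, the defining factor SOX10 was at 0 in the same 3 groups. MKI67, a marker of cycling cells, was at 414 to 508 CPM in DMSO, 361 to 448 in RA, 131 to 162 in PB and 42.6 to 86.9 in PB+RA. In bulk RNA, fewer cells with a transcript and less transcript per cell cannot be told apart.

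The genes did not move as a block. RA raised DUSP6, PB raised DUSP4 and lowered ETV4, and PB+RA raised 4 of the 10 genes (DUSP4, DUSP5, DUSP6 and SPRY1) while lowering SPRY2 and ETV4. A gene was called when its Benjamini-Hochberg adjusted p in edgeR's quasi-likelihood test was below 0.05 and its log2 fold change was beyond 0.5 in either direction. Against DMSO, PB called 2 of the 10 genes where 28.2% of all tested genes were called, RA called 1 where the background was 13.3%, and PB+RA called 6 where it was 41.9% (4 higher, background 24.0%, and 2 lower, background 17.9%). PB+RA called 2 of 10 against PB (background 16.3%), 5 of 10 against RA (29.0%), and PB called 5 of 10 against RA (26.0%). The median log2 fold change of the 10 genes against DMSO was 0.09 for PB, 0.17 for RA and 0.29 for PB+RA, and that of all tested genes was 0.03, 0.01 and 0.04.

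**Figure D1:**
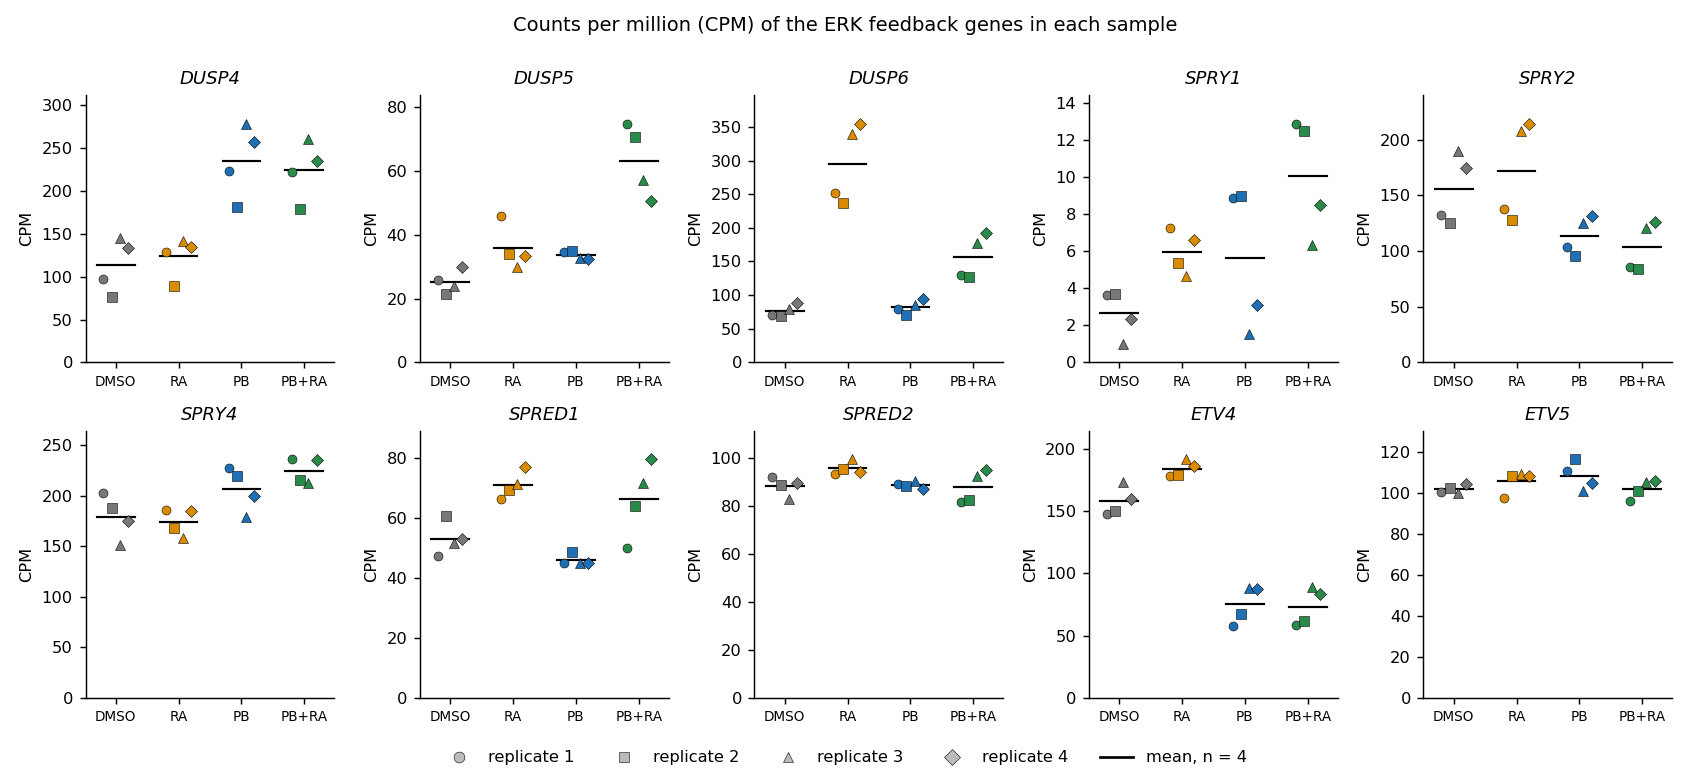
CPM (vertical axes, starting at 0) of each of the 10 ERK feedback genes in the 16 samples, by group on the horizontal axis; each marker shape is a replicate number and the bar is the mean of 4 samples. DUSP6 peaks in RA at 237 to 354 CPM, DUSP4 and ETV4 separate the groups with PB from those without it, and ETV5 stays between 96.3 and 116 CPM.

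DUSP6, a cytoplasmic phosphatase selective for ERK and often read as a gauge of ERK output, gave the largest response to RA among the 10 genes. It lies at chr12:89741012-89746278 on the minus strand (GRCh37, the hg19 assembly). Its level in replicates 1 to 4 was 69.9, 69.6, 79.1 and 88.4 CPM in DMSO, 78.8, 70.7, 84.7 and 94.2 in PB, 251, 237, 339 and 354 in RA, and 130.3, 127, 177 and 192 in PB+RA. The RA samples all stood above the PB+RA samples, which all stood above the overlapping DMSO and PB samples. DUSP6 rose 3.83-fold with RA (log2 fold change 1.94 ± 0.16 (SE), adjusted p = 5.46e-07) and 2.00-fold with PB+RA (1.00 ± 0.16, adjusted p = 3.91e-05). PB alone gave a log2 fold change of 0.10 with a 95% interval from -0.23 to 0.43. Adding PB to RA lowered DUSP6 by 0.94 ± 0.15 on the log2 scale (adjusted p = 0.000105), and the ratio of PB+RA to RA within a replicate number lay between 0.519 and 0.542 in all 4. The order of levels was RA, PB+RA, PB, DMSO, and only the last 2 neighbours did not differ beyond their spread.

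For DUSP6 the 2 drugs together gave less than the sum of their log2 changes. The sum of the single log2 changes was 2.03 and the observed change was 1.00, an interaction (observed minus sum) of -1.04 ± 0.22 (adjusted p = 0.0122). This was the only one of the 10 genes called in the interaction, where 3.44% of all tested genes were called. Replicates 1 and 2 alone gave -1.03 and replicates 3 and 4 alone gave -0.98, and leaving out any 1 library gave values from -1.12 to -0.90. DUSP6 shares 1105 bp of exon with a long noncoding RNA on the opposite strand that has no values here, and the strand setting of the counts was not stated, so reads of that RNA could be counted in it. The summed mesenchymal markers were also above DMSO in RA (1102 to 1556 CPM) and in PB+RA (1021 to 1382), 2 ranges that overlap. FN1 led them, at a mean of 175 CPM in DMSO, 733 in RA and 519 in PB+RA. Of the 5 mesenchymal markers tested, 0 were called in the interaction. The part of these markers in the DUSP6 result was not tested.

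The bases just before a listed start of DUSP6 and of 2 Sprouty genes are shown because ETS factors such as ETV4 and ETV5 bind a GGAA core, and these genes responded differently to the drugs. Sequences are from the RefSeq promoter table (GRCh38.p14), which held 6 of the 10 genes (DUSP6, SPRY1, SPRY2, SPRY4, SPRED1 and SPRED2, the first start listed for each), and each was found once in GRCh37: DUSP6 at chr12:89746279-89746528, SPRY2 at chr13:80915262-80915511 and SPRY4 at chr5:141703813-141704062, all on the minus strand. The SPRY4 window lies inside the gene as GENCODE bounds it, before a start that RefSeq lists downstream of the outermost one. The sequences read 5′ to 3′ toward the start, with capitals at CGGAA or its reverse complement TTCCG.
DUSP6: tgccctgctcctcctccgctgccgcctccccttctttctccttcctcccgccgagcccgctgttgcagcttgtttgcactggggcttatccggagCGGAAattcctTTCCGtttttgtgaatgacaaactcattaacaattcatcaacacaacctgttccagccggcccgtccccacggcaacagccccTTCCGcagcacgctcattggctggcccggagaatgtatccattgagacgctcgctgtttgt
SPRY2: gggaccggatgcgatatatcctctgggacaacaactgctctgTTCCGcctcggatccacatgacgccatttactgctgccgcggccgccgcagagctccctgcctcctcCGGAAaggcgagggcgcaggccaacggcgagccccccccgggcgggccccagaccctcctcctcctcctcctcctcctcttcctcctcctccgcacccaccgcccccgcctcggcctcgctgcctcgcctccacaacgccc
SPRY4: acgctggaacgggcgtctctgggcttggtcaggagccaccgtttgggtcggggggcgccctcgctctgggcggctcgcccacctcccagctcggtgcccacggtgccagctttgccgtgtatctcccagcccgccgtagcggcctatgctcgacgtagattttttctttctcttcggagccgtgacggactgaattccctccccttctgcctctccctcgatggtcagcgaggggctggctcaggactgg
DUSP6 held 3 matches, at 155 to 151, 144 to 140 and 61 to 57 bases before the start, the first on the sense strand and the other 2 on its complement. SPRY2 held 2 matches, at 208 to 204 and 141 to 137 bases before the start. The windows of the other 4 genes held no CGGAA or TTCCG, so 2 of 6 had a match, against 30.3% of the 35116 windows in the table. The shorter GGAA core was not searched. It also occurs in windows without a match, such as that of SPRY4. The motif was chosen after the sequences were seen. The longer ETS letters CCGGAAG, which include CGGAA (8.52% of all windows), and the cyclic AMP response element TGACGTCA (1.65%) were also searched. Neither was found on either strand in any of the 6 windows.

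DUSP4, a nuclear phosphatase of MAP kinases (chr8:29190581-29208201, minus strand), responded to PB. Replicates 1 to 4 held 96.7, 76.4, 145 and 134 CPM in DMSO, 128, 89.1, 142 and 135 in RA, 223, 182, 278 and 257 in PB, and 222, 179, 261 and 234 in PB+RA. Every sample with PB was above every sample without it, and the replicate with the lowest level was replicate 2 in each group. DUSP4 rose 2.08-fold with PB (log2 fold change 1.06 ± 0.20, adjusted p = 0.000437) and 1.94-fold with PB+RA (0.96 ± 0.20, adjusted p = 0.000658). RA alone gave 0.12, with a 95% interval from -0.31 to 0.55, and RA on top of PB gave -0.10, with an interval from -0.52 to 0.33. PB+RA exceeded RA by 0.84 ± 0.20 (adjusted p = 0.00255) and PB exceeded RA by 0.94 ± 0.20 (adjusted p = 0.00126). In the order PB, PB+RA, RA, DMSO, neither the first pair nor the last pair differed beyond the spread.

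DUSP5, an inducible nuclear phosphatase that also anchors ERK in the nucleus (chr10:112257665-112271291, plus strand), was highest when both drugs were present. Its CPM in replicates 1 to 4 were 25.7, 21.4, 24.0 and 29.8 in DMSO, 34.5, 34.8, 32.7 and 32.4 in PB, 45.8, 34.1, 29.8 and 33.3 in RA, and 74.8, 70.8, 57.1 and 50.6 in PB+RA. The PB+RA samples lay above all others, and the PB and RA samples overlapped each other but lay above DMSO, with the lowest RA and the highest DMSO sample both at 29.8. The rise with PB+RA was 2.46-fold (log2 fold change 1.30 ± 0.14, adjusted p = 5.38e-07), and PB+RA was above PB by 0.89 ± 0.14 (adjusted p = 0.000125) and above RA by 0.81 ± 0.14 (adjusted p = 0.000128). Each single drug gave a smaller change with an adjusted p below the threshold but a size below the minimum, 0.41 for PB (adjusted p = 0.0203) and 0.495 for RA (adjusted p = 0.0119). The RA change passed the minimum without DMSO replicate 4 (0.58) or without RA replicate 2, 3 or 4 (0.51, 0.55 and 0.505). The sum of the single changes was 0.91 against 1.30 observed, and the interaction of 0.39 ± 0.20 was not called (adjusted p = 0.315). Ordered PB+RA, RA, PB, DMSO, the middle pair differed by -0.08 (PB minus RA, 95% interval -0.38 to 0.21).

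**Figure D2:**
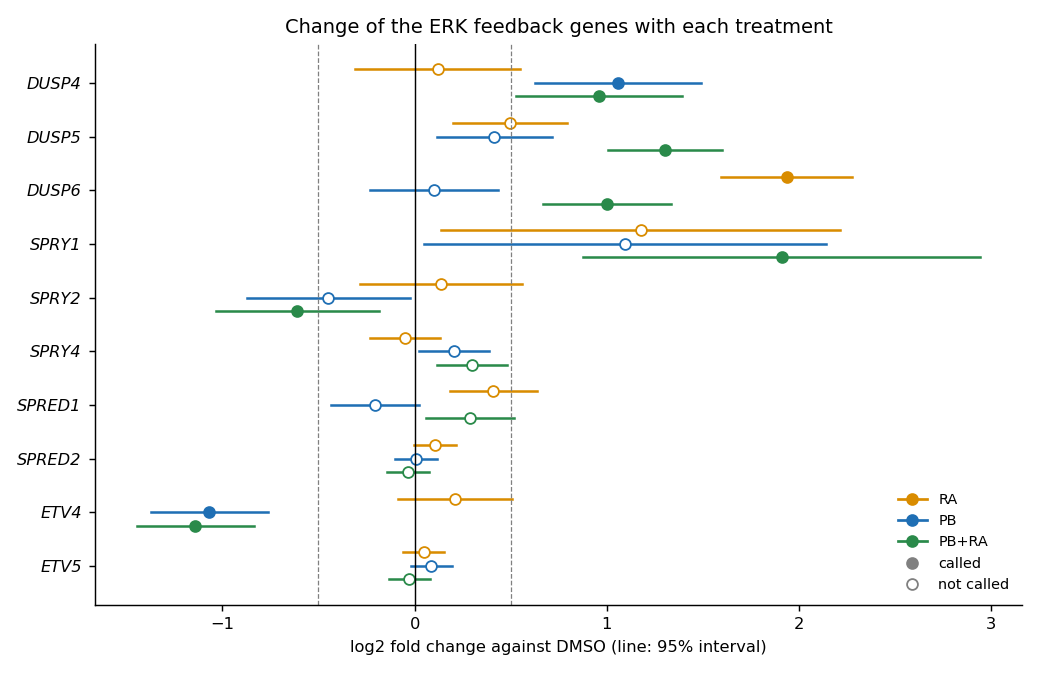
Log2 fold change against DMSO (horizontal axis) of the 10 genes (vertical axis) for RA, PB and PB+RA, with 95% intervals as lines, filled points for called genes and dashed lines at the minimum of 0.5. PB+RA has 6 filled points, 4 above 0 and 2 below, while PB has 2 and RA has 1.

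The Sprouty genes divided 3 ways. SPRY2 (chr13:80910111-80915261, minus strand), an inhibitor of receptor signalling to RAS, fell in PB+RA. It was at 132, 125, 189 and 174 CPM in DMSO, 103, 95.3, 125 and 131 in PB, 138, 127, 208 and 214 in RA, and 85.4, 83.9, 120.4 and 126 in PB+RA, replicates 1 to 4. Replicates 3 and 4 were above replicates 1 and 2 in all 4 groups, and within each replicate number PB and PB+RA were below DMSO. PB+RA lowered SPRY2 1.53-fold against DMSO (log2 fold change -0.61 ± 0.20, adjusted p = 0.0138), although the highest PB+RA sample just overlapped the lowest DMSO sample, and 1.68-fold against RA (-0.75 ± 0.20, adjusted p = 0.00527). With PB alone the change was -0.45 (adjusted p = 0.0694, 95% interval -0.87 to -0.03), and it was called without DMSO replicate 1 (-0.54), DMSO replicate 2 (-0.565) or PB replicate 4 (-0.55). PB lay below RA by -0.58 (adjusted p = 0.0228), a call lost without RA replicate 3 (-0.48), RA replicate 4 (-0.46), PB replicate 1 (-0.53) or PB replicate 2 (-0.52). RA alone gave 0.14 (95% interval -0.29 to 0.56), so in the order RA, DMSO, PB, PB+RA no pair of neighbours was called. With the replicate number as a block, the PB change (-0.44, adjusted p = 2.47e-07) and PB+RA against PB (-0.17, adjusted p = 0.009) passed the p threshold, each with 4 of 4 replicates lower, and stayed under the minimum size.

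SPRY1, a paralogue of the same inhibitor family (chr4:124317950-124324915, plus strand), was scarce and rose with PB+RA. Its levels in replicates 1 to 4 were 3.62, 3.67, 0.98 and 2.32 CPM in DMSO, 8.88, 9.0, 1.52 and 3.08 in PB, 7.25, 5.38, 4.67 and 6.62 in RA, and 12.9, 12.5, 6.34 and 8.51 in PB+RA. Replicates 1 and 2 were higher than 3 and 4 in DMSO, PB and PB+RA, but not in RA. PB replicates 3 and 4 lay within the DMSO range, though each was above the DMSO sample of its own number. The PB+RA samples were all above DMSO. The counts behind these levels summed to 283 in DMSO and 929 in PB+RA over 4 libraries. PB+RA raised SPRY1 3.76-fold (log2 fold change 1.91 ± 0.48, adjusted p = 0.00274). Neither single drug was called, with 1.10 ± 0.49 for PB (adjusted p = 0.0722) and 1.18 ± 0.49 for RA (adjusted p = 0.0734). With the replicate number as a block, both were called, at 1.05 (adjusted p = 0.0103) and 1.26 (adjusted p = 0.00434), as were PB+RA against PB (0.90, adjusted p = 0.0145) and against RA (0.69, adjusted p = 0.0363). Leaving out PB replicate 3, the lowest of its group, also brought both single drugs past the threshold (1.38 for PB and 1.15 for RA). Within a replicate number, the log2 ratio of PB to DMSO was 1.30, 1.29, 0.63 and 0.41 in replicates 1 to 4, and that of RA to DMSO was 1.00, 0.55, 2.25 and 1.51, so the larger PB ratios and the larger RA ratios were in different replicates.

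SPRY4 (chr5:141689992-141706020, minus strand), a further Sprouty inhibitor, had the highest mean CPM of the 10 genes and moved little. It held 202, 188, 151 and 175 CPM in DMSO, 186, 168, 158 and 184 in RA, 227, 219, 179 and 199.7 in PB, and 236, 215, 213 and 235 in PB+RA. The PB+RA samples were above all DMSO and all RA samples. The differences had small adjusted p values but lay below the minimum size, at 0.30 ± 0.09 for PB+RA against DMSO (adjusted p = 0.00581) and 0.35 ± 0.09 against RA (adjusted p = 0.00258). The 95% interval of the PB change ran from 0.02 to 0.39 and that of RA from -0.23 to 0.13. SPRY4-AS1, which overlaps SPRY4 on the opposite strand but shares no exon bases with it, was near 1 CPM (means of 0.75 to 1.17).

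SPRED1, which recruits neurofibromin to RAS (chr15:38545037-38649450, plus strand), was higher in RA than in PB. Replicates 1 to 4 gave 47.2, 60.7, 51.5 and 52.9 CPM in DMSO, 45.1, 48.6, 44.9 and 45.0 in PB, 66.1, 69.3, 71.1 and 77.0 in RA, and 49.9, 63.9, 71.5 and 79.5 in PB+RA. The RA samples stood above all DMSO and PB samples, whereas the PB+RA samples were spread widely, with replicate 1 inside the DMSO range. PB was 1.53-fold below RA (log2 fold change -0.62 ± 0.11, adjusted p = 0.000179), while the change against DMSO was 0.41 for RA (adjusted p = 0.00746) and -0.21 for PB (adjusted p = 0.117), both under the minimum size. PB+RA exceeded PB by 0.497 ± 0.11 (adjusted p = 0.00191), just under the minimum. This difference was called without PB+RA replicate 1 (0.61) or 2 (0.51), PB replicate 2 (0.52) or 3 (0.505), DMSO replicate 1 or 3 (0.51 each), or RA replicate 3 or 4 (0.51 each).

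SPRED2, the sister gene of SPRED1 (chr2:65537985-65659771, minus strand), was close to level. Its lowest and highest samples were 82.9 and 92.1 CPM in DMSO, 87.0 and 90.3 in PB, 93.3 and 99.3 in RA, and 81.5 and 94.7 in PB+RA. All RA samples were above all DMSO samples, yet the change was 0.11 on the log2 scale (95% interval -0.00 to 0.22). Intervals against DMSO were -0.10 to 0.12 for PB and -0.15 to 0.07 for PB+RA, so changes as large as the minimum of 0.5 lay outside all of them.

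The 2 PEA3 factors parted. ETV4 (chr17:41605212-41656988, minus strand) was at 148, 150.2, 173 and 160.1 CPM in DMSO, 178, 179, 192 and 186 in RA, 57.6, 67.6, 88.3 and 87.3 in PB, and 58.3, 61.6, 89.3 and 83.2 in PB+RA. All 8 samples with PB were below all 8 without it, and the RA samples were all above DMSO. PB lowered ETV4 2.10-fold (log2 fold change -1.07 ± 0.14, adjusted p = 1.33e-05) and PB+RA lowered it 2.20-fold (-1.14 ± 0.14, adjusted p = 3.69e-06). RA alone gave 0.21 (adjusted p = 0.264), and RA on top of PB gave -0.07, with a 95% interval from -0.38 to 0.23. With the replicate number as a block, the RA change (0.21, adjusted p = 0.0411) passed the p threshold, with 4 of 4 replicates higher, and stayed under the minimum size. PB on top of RA gave a 2.55-fold fall (-1.35 ± 0.14, adjusted p = 1.13e-06). MKI67 was lower in the same groups, and its part in the ETV4 result was not tested. ETV4 shares 68 bp of exon with DHX8 on the opposite strand, whose mean was 79.5 CPM in DMSO, 73.1 in PB, 83.2 in RA and 70.0 in PB+RA.

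ETV5 (chr3:185764103-185828107, minus strand) ranged over the groups from 96.3 to 116 CPM. DMSO samples lay between 100.2 and 105, PB between 101 and 116, RA between 97.8 and 109, and PB+RA between 96.3 and 106. The groups overlapped throughout. Its 95% intervals against DMSO were -0.02 to 0.19 for PB, -0.06 to 0.15 for RA and -0.13 to 0.08 for PB+RA. ETV5 shares 164 bp of exon with DGKG on the same strand, which was at means of 19.8 to 21.9 CPM.

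**Figure D3:**
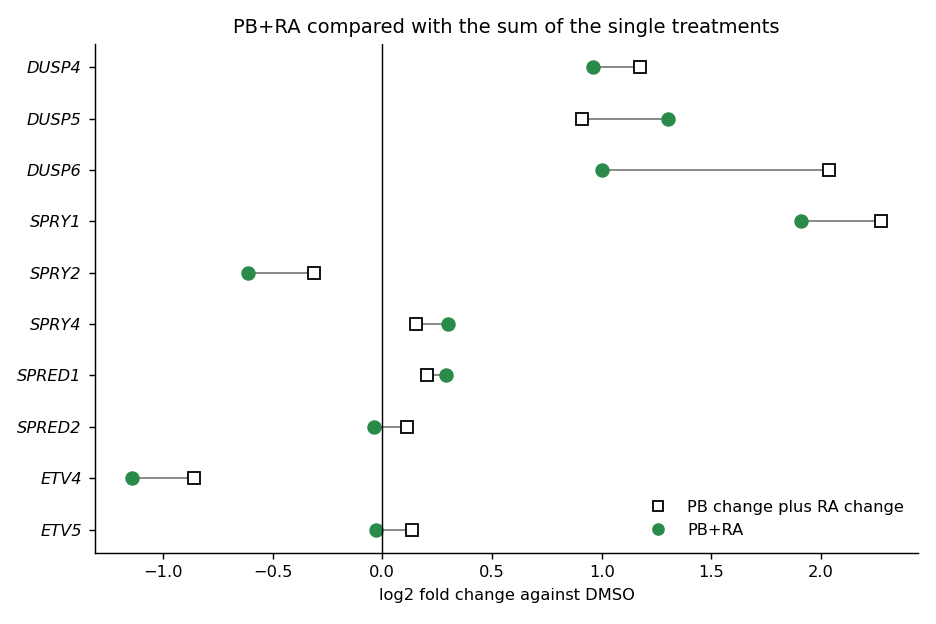
For each of the 10 genes (vertical axis), the sum of the PB and RA log2 fold changes (open squares) and the log2 fold change of PB+RA (filled circles), all against DMSO (horizontal axis). The gap is widest for DUSP6, 2.03 against 1.00, and runs the other way for DUSP5, 0.91 against 1.30.

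For the other 9 genes the interaction was not called. Its values ran from -0.36 for SPRY1, whose 95% interval of -1.79 to 1.06 was the widest, to 0.39 for DUSP5. In the main fit, without a block, the intervals of DUSP4 (-0.82 to 0.39), ETV4 (-0.71 to 0.14) and SPRY2 (-0.90 to 0.30) also allowed a shortfall beyond 0.5. Those of SPRED2 (-0.30 to 0.00) and ETV5 (-0.31 to -0.01) did not. With the replicate number as a block, DUSP6 kept an interaction of -1.04 (adjusted p = 2.57e-08) and none of the other 9 was called. SPRY2 then had an interaction of -0.29 ± 0.07 (adjusted p = 0.00776), past the p threshold but under the minimum size.

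Divided by exon length, the order of levels between genes shifted with treatment. In DMSO, SPRY2 (48.4 ± 9.75 CPM per kb, SD, n = 4) and ETV4 (44.9 ± 3.27) were the most abundant and did not differ beyond their spread, followed by SPRY4 (27.3 ± 3.29) and DUSP6 (19.9 ± 2.31). ETV5 (17.7 ± 0.364), SPRED2 (16 ± 0.705) and DUSP4 (15.5 ± 4.40) lay within each other's spread or close to it, and DUSP5 (9.96 ± 1.39), SPRED1 (6.85 ± 0.726) and SPRY1 (0.668 ± 0.321) were lowest. In RA, DUSP6 led with 76.5 ± 15.5 CPM per kb, ahead of SPRY2 at 53.5 ± 14.2 and ETV4 at 52.3 ± 1.81. In PB, SPRY2 (35.4 ± 5.32), DUSP4 (32.3 ± 5.80) and SPRY4 (31.5 ± 3.30) led within each other's spread, with ETV4 at 21.4 ± 4.30. In PB+RA, DUSP6 (40.6 ± 8.52), SPRY4 (34.3 ± 1.91), SPRY2 (32.3 ± 6.94) and DUSP4 (30.8 ± 4.67) were the highest and overlapped. SPRY1 stayed the least abundant in every group, at 2.54 ± 0.799 CPM per kb in PB+RA.

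Close relatives of the 10 genes were mixed as well. Of 10 listed paralogues, 9 were tested, and 4 rose and 0 fell with PB, 2 rose and 2 fell with RA, and 2 rose and 2 fell with PB+RA, where 28.2%, 13.3% and 41.9% of all tested genes were called in either direction. SPRED3, the third SPRED gene, was at 13.6 to 16.9 CPM in DMSO, 34.1 to 34.7 in RA, 34.4 to 39.9 in PB and 46.1 to 60.5 in PB+RA, so that both drugs raised it and PB+RA stood above either. Its log2 fold change was 1.35 ± 0.08 for PB (adjusted p = 3.12e-09), 1.2 ± 0.08 for RA (adjusted p = 5.44e-08) and 1.81 ± 0.08 for PB+RA (adjusted p = 1.84e-11), with an interaction of -0.73 ± 0.12 (adjusted p = 0.00159). DUSP7, a cytoplasmic ERK phosphatase like DUSP6, went the opposite way: 40.5 to 51.4 CPM in DMSO, 27.8 to 39.5 in RA, 29.8 to 36.0 in PB and 17.9 to 25.2 in PB+RA, with a log2 fold change of -1.13 ± 0.12 for PB+RA (adjusted p = 5.43e-07). DUSP9, of the same cytoplasmic group and scarce here, fell from 3.55 to 5.30 CPM in DMSO to 0.929 to 2.07 in PB+RA (-1.49 ± 0.25, adjusted p = 5.32e-05). DUSP2, a nuclear phosphatase, rose with PB (1.21 ± 0.30, adjusted p = 0.00254) and fell with RA (-1.41 ± 0.34, adjusted p = 0.00455), and its highest sample held 4.90 CPM. SPRY3 did not pass the filter.

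**Figure D4:**
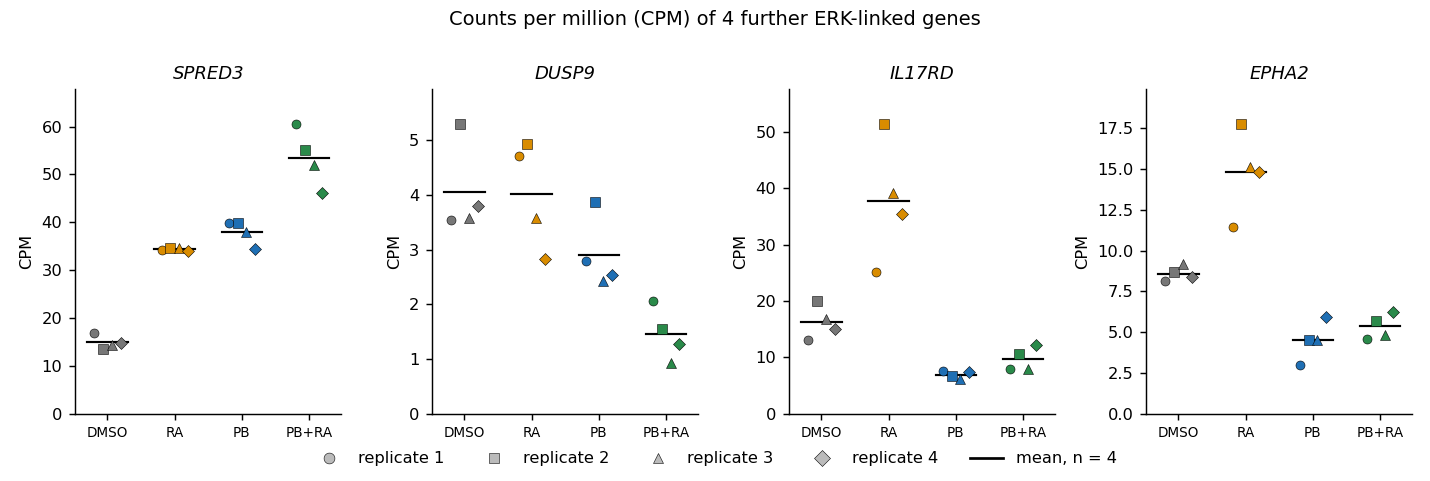
CPM (vertical axes, starting at 0) of SPRED3, DUSP9, IL17RD and EPHA2 in the 16 samples, by group on the horizontal axis; marker shapes are replicate numbers and bars are means of 4. SPRED3 is highest in PB+RA at 46.1 to 60.5 CPM, DUSP9 is lowest there, and IL17RD and EPHA2 are highest in RA and lower in both groups with PB than in DMSO.

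Other genes commonly read as ERK output were taken as a second list. Of 9 listed, 7 were tested (IER3 and EPHA4 were not), and 5 rose and 0 fell with RA, 2 rose and 2 fell with PB, and 3 rose and 2 fell with PB+RA; the shares of all tested genes called were 13.3%, 28.2% and 41.9%. The list's median log2 fold change was 0.77 for RA, -0.44 for PB and 0.62 for PB+RA, and that of all tested genes was 0.01, 0.03 and 0.04. IL17RD, also called Sef and a membrane inhibitor of FGF signalling, was at 13.2 to 19.97 CPM in DMSO, 25.1 to 51.4 in RA, 6.18 to 7.55 in PB and 7.95 to 12.2 in PB+RA. The groups were separate from one another, and the changes against DMSO were 1.21 ± 0.19 for RA (adjusted p = 0.000155), -1.23 ± 0.20 for PB (adjusted p = 8.01e-05) and -0.78 ± 0.19 for PB+RA (adjusted p = 0.00221). EPHA2, an ephrin receptor, was at 8.12 to 9.17 CPM in DMSO, 11.5 to 17.8 in RA, 3.0 to 5.93 in PB and 4.61 to 6.25 in PB+RA, with changes of 0.77 for RA (adjusted p = 0.00171), -0.93 for PB (adjusted p = 0.000236) and -0.71 for PB+RA (adjusted p = 0.00143). MYC, at 1.49 to 3.23 CPM in DMSO and 8.81 to 10.8 in PB+RA, rose with all 3 treatments (2.06 ± 0.20 for PB+RA, adjusted p = 9.90e-08). The AP-1 member FOSL1, whose samples stayed below 3 CPM, rose with RA (1.26 ± 0.41, adjusted p = 0.0239).

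The third list held transcripts of the cascade itself. Of 22 listed from adaptors to ERK and its kinase substrates, 21 were tested (KSR2 was not), and 0 rose and 3 fell with PB, 2 rose and 0 fell with RA, and 2 rose and 3 fell with PB+RA. These shares were below the 28.2%, 13.3% and 41.9% of all tested genes that were called. HRAS, a RAS GTPase, was at 37.7 to 43.4 CPM in DMSO and 17.4 to 20.4 in PB+RA (log2 fold change -1.07 ± 0.09, adjusted p = 1.19e-08). NRAS, its relative, went from 175 to 199 CPM in DMSO to 101 to 131 in PB+RA (-0.68 ± 0.07, adjusted p = 3.05e-07). RPS6KA1, an ERK-activated kinase, changed by -0.79 ± 0.13 with PB+RA (adjusted p = 5.43e-05). RASA1, which switches RAS off, rose from 43.6 to 48.5 CPM in DMSO to 73.3 to 98.5 in PB+RA (0.87 ± 0.09, adjusted p = 3.73e-07).

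Receptor tyrosine kinases, which act upstream of RAS, formed the last list. Of 17 listed, 15 were tested (MET and KIT were not), and 2 rose and 2 fell with PB, 3 rose and 2 fell with RA, and 7 rose and 3 fell with PB+RA, beside 28.2%, 13.3% and 41.9% of all tested genes called. NTRK2, the receptor of BDNF, had 12 counts over the DMSO libraries and 0 counts in all 4 PB libraries, against 1.05 to 4.69 CPM in RA and 0.354 to 2.00 CPM in PB+RA. ERBB2 rose from 0.709 to 1.58 CPM in DMSO to 5.36 to 6.92 in PB+RA (log2 fold change 2.34 ± 0.23, adjusted p = 1.30e-07). FGFR2 fell from 1.36 to 2.49 CPM in DMSO to 0.162 to 0.512 in PB+RA (-2.80 ± 0.37, adjusted p = 4.53e-06). ERBB3 varied widely among replicates, at 3.95 to 27.7 CPM in DMSO and 0.727 to 5.89 in PB+RA (-2.39 ± 0.86, adjusted p = 0.0234).

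The genes whose pattern was most like that of the member with the highest mean CPM in each family (not corrected for length; per kb, DUSP6 and SPRY2 exceed DUSP4 and SPRY4) were found among 9993 other genes averaging 10 CPM or more, by Pearson's r of log2 CPM over the 16 samples. DUSP4 was followed by NSG1 (r = 0.98), CADPS (0.978) and NCS1 (0.972), and ETV4 by EMP3 (0.988), SQLE (0.987) and FZD2 (0.984). The nearest to SPRY4 were EPAS1 (0.921), LOC100507412 (0.912) and CLK4 (0.907), and to SPRED2 were ZEB2 (0.834), SMAD2 (0.822) and MGAT3 (0.817). These values describe 16 points that share treatment groups and replicate numbers, so genes that respond to the same drug score high whatever else they share.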

How the data were processed

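Polyadenylated RNA of the 16 SK-N-BE(2)C samples was sequenced by the authors from strand-specific paired-end libraries, trimmed with Trim Galore and aligned to hg19 with STAR (versions 0.6.4 and 2.6.1d in the submitters' processing notes). The deposited counts are reads per gene from STAR, not normalized; the annotation release and strand column were not given in the sources used here. The deposited CPM were made by the authors and equal each count over its sample total, scaled (relative difference up to 5e-15). A further deposited table holds log2 fold changes and adjusted p-values of the authors' comparisons made with DESeq2 1.32.0 and was not used.

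Groups and replicate numbers were taken from sample titles. Counts were analysed in R 4.3.3 with edgeR 4.0.16: filterByExpr, TMM factors (0.983 to 1.021) and 1 robust quasi-likelihood fit of 4 group coefficients to all 16 samples, with Benjamini-Hochberg adjustment over the 15415 genes tested in each of 7 comparisons. Calls needed an adjusted p below 0.05 and an absolute log2 fold change above 0.5. SE is the log2 fold change over the root of F. The interaction is the PB+RA change minus the sum of the PB and RA changes, all against DMSO. The fit was tested on simulated data. No pair of samples had identical counts.

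Biological replicates that share a number were checked for pairing: all 24 pairs had correlated deviations from their group means (r from 0.33 to 0.573), and the numbers come from the titles, so a fit with the replicate as a block was run beside the main one. The third principal component (10.8% of variance) separated replicates 1 and 2 from 3 and 4 in every group. Alternatives were RLE factors, DESeq2 1.42.0, limma 3.58.1 (voom), other filters and fold minimums, only the groups compared, a GC and length offset (14682 genes, 95.2%, spline of 5 degrees of freedom), replicate subsets and leaving out each library. Gene positions are from GENCODE gene models on GRCh37, which may not be the authors' annotation, and levels per kb use their exon length.

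The 10 genes and the lists were chosen with earlier results of these data known. Named genes were the 10, up to 4 called genes with the largest change against DMSO in each wider list, the 3 most alike in pattern to the gene of highest mean CPM in each family, and markers. Overlapping genes (DHX8, DGKG and SPRY4-AS1) were added after seeing the data.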

Additional observations from a re-analysis of the deposited data

Results flagged for a closer look

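In SPRED1, PB replicate 2 stood at 48.6 CPM, apart from the other 3 PB samples at 44.9 to 45.1 CPM. In ETV5, RA replicate 1 stood at 97.8 CPM, apart from the other 3 RA samples at 108 to 109 CPM. Both gaps passed Dixon's 95% limit for 4 values. They are 2 of 40 groups tested (10 genes in 4 groups), and chance flags about 1 in 20 groups.

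The effect of RA on DUSP6 differed with and without PB. The interaction was -1.04 on the log2 scale, since RA raised DUSP6 by 1.94 from DMSO and by 0.90 from PB. What underlies this difference was not tested.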

How the results depend on the processing

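All 70 values of the 10 genes in 7 comparisons kept their call with RLE factors, DESeq2, limma-voom and no filter beyond a summed count above 10. The called values also kept their direction, and the direction of uncalled values was not compared. No call reversed under any alternative. The number called for PB against DMSO went from 2 to 4 in replicates 1 and 2 alone, where DUSP5 and SPRY1 were added. For RA against DMSO it went from 1 to 2 with a mean of at least 5 CPM, with only the groups compared, with the replicate block, with replicates 3 and 4 alone and with the GC and length offset plus block, and to 3 with no fold minimum or with replicates 1 and 2 alone. PB+RA against DMSO went from 6 to 3 with a log2 minimum of 1. PB+RA against PB went from 2 to 0 with that minimum, and to 4 in replicates 3 and 4 or with the GC and length offset plus block. With the minimum of 1, PB+RA against RA went from 5 to 1 and PB against RA from 5 to 2. The interaction went from 1 to 2 in replicates 3 and 4 alone, where DUSP5 was added (0.53). With 2 samples a group these subsets rest on few degrees of freedom.

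Leaving out 1 library gave 2 to 3 called genes for PB, 1 to 2 for RA, 6 to 6 for PB+RA, 2 to 3 for PB+RA against PB, 5 to 5 against RA, 4 to 5 for PB against RA and 1 to 1 for the interaction. The libraries that moved the RA count were DMSO replicate 4 and RA replicates 2, 3 and 4, through DUSP5, and PB replicate 3, through SPRY1. The replicate block called SPRY1 in 4 comparisons and changed no other call among the 10 genes; in the interaction it moved the other ERK output genes called from 0 to 2 and the receptor tyrosine kinases from 2 to 5, while the share of all tested genes called there went from 3.44% to 7.6%. The cause of these shifts was not tested, except that a stricter fold minimum removes calls by construction. SPRY1 rests on 283 to 929 counts per group.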
